A study of Mus musculus with 6 samples.

Results

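Fatty acid synthesis, elongation and desaturation is described here by 10 genes: *Acly*, *Acaca*, *Fasn*, *Scd1*, *Scd2*, *Elovl1*, *Elovl5*, *Elovl6*, *Fads1* and *Fads2*. They were taken as a fixed list of the enzymes that build a fatty acid from citrate, lengthen it and put double bonds into it. All 10 were found among the 59485 genes of the table and all 10 passed the filter on low values (a mean of at least 10 in at least 1 genotype), which left 25802 genes for testing. RNA was sequenced from sciatic nerves at postnatal day 4 (P4) from 3 control animals and 3 mutant animals, 1 library each. The control libraries are titled control with the genotype wild-type, which in the study's methods means animals without Cre that themselves carry R26R and the floxed allele, as Adar1 fl/fl or Adar1 fl/+, and which of these each control was is not given in the sources used here. For histology the study also counts heterozygous animals, which carry Cre, as controls. The mutants carry HtPA-Cre, Adar1 fl/fl and R26R, a YFP tracer of neural crest (NC) cells that both groups therefore share. HtPA-Cre is driven by the human tissue plasminogen promoter and acts in NC cells and what derives from them, including Schwann cells, so endothelial cells, macrophages, blood cells and other cells of the nerve with another origin keep intact alleles.

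The targeted gene was checked first. *Adar* (chr3:89715022-89753454 on mm10), the gene of the RNA editing enzyme ADAR1, had normalised read counts of 1602, 2066 and 1133 in the libraries labelled control and of 11768, 9311 and 9773 in those labelled mutant, a log2 fold change of 2.72 (SE 0.20, limma adjusted p = 4.1e-05). The level was higher in every mutant-labelled library, although the label is that of a deletion, and the cause was not tested. The table gives 1 value for the whole gene and does not resolve the floxed exons, so it neither shows nor contradicts the deletion itself. Every direction given here is drawn from the labels, as mutant-labelled relative to control-labelled libraries. A normalised read count is the number of reads on a gene divided by the size factor of the library.

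Cells make fatty acids from citrate. ATP citrate lyase (*Acly*) releases acetyl-CoA from it in the cytosol, acetyl-CoA carboxylase (*Acaca*) turns acetyl-CoA into malonyl-CoA, and fatty acid synthase (*Fasn*) joins these units into palmitate. ELOVL enzymes then catalyse the first step of each round of chain lengthening at the endoplasmic reticulum, stearoyl-CoA desaturases (*Scd1*, *Scd2*) introduce the first double bond into saturated chains, and the front-end desaturases FADS1 and FADS2 act on the polyunsaturated chains. Myelinating Schwann cells use these chains for the phospholipids, galactolipids and sphingomyelin of myelin. The transcription factors SREBP1 and SREBP2 are known activators of many of these genes.

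The libraries held 50938349 to 78250094 reads on genes, and the least counted member had 1144 reads in its lowest library. By *Xist* and Y-linked genes, 2 of the 3 control-labelled animals and 1 of the 3 mutant-labelled animals were female. Marker lists of the nerve's cell types are described by counts past the threshold defined below, with no test of a list. Among all tested genes 10.4% were lower and 13.9% higher past it. Of 7 Schwann cell markers analysed here, 3 (*S100b*, *Erbb3* and *Gfra3*) were lower past the threshold and none was higher, and the summed value of the list was 48325 to 51815 in libraries labelled control and 25664 to 33605 in those labelled mutant. The other 4 did not pass, and *Ngfr* (log2 fold change -0.00) and *Cdh19* (0.13) had overlapping genotypes. Of 8 skeletal muscle markers, 7 were higher, with sums of 6772 to 35782 against 45906 to 336692, and of 7 erythroid markers 6 were lower, with sums of 55078 to 77130 against 5151 to 15734. Of 7 T cell and NK cell markers tested, 5 were higher, with sums of 87.4 to 175 against 452 to 641 and with *Cd3d*, *Cd8a*, *Gzmb* and *Prf1* at 0 in the 3 control-labelled libraries. Of 7 fibroblast markers, 2 were lower, the collagens *Col1a1* and *Col1a2*, which carry most of the list's sums of 1927763 to 2172783 against 782161 to 1182162. The other 5 did not pass, 4 of the 7 had a positive log2 fold change, and the list median was 0.00. Of 9 macrophage markers 3 were lower and 1 higher, of 6 perineurial markers 1 was lower and 1 higher, and none of 8 endothelial markers passed, and the sums of these lists overlapped between genotypes. All 8 endothelial markers had a positive log2 fold change, from 0.16 to 0.81 with a median of 0.49. The part of these cell types in the results on the lipogenic enzymes was not tested. In RNA of a whole nerve, fewer cells of a type and less RNA per cell cannot be told apart. For Schwann cells, the study reports from electron microscopy of P4 sciatic nerves a similar number in mutants and controls.

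Of the 10 enzymes, 9 were lower in the mutant-labelled relative to the control-labelled libraries, and none was higher, past the threshold (an unadjusted p of 0.05 or less together with a 2-fold or larger difference). Among all tested genes 10.4% were lower and 13.9% higher by this rule. The same 9 were lower with an adjusted p at or under 0.05, for which the share of all tested genes is 8.46%. The exception was *Elovl5*, whose 3 mutant values lay above its 3 control values without reaching 2-fold. The genotypes did not overlap for any of the 10 genes. In 9 of them all mutant values were below all control values, which held for 23.3% of all tested genes, and in *Elovl5* all mutant values were above, which held for 25.9%. The median log2 fold change of the 10 was -1.68, with a range from -4.25 (*Elovl6*) to 0.44 (*Elovl5*), against a median of 0.03 over all tested genes.

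**Figure D1:**
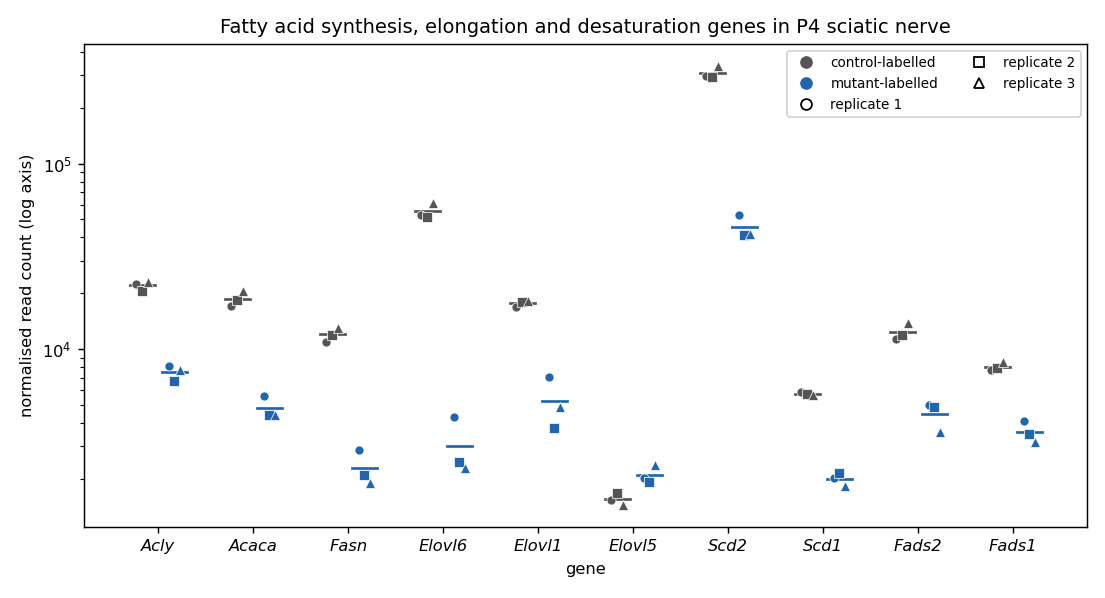
Normalised read counts (log axis) of the 10 enzymes in each of the 3 control-labelled and 3 mutant-labelled libraries, with 1 point per library and a bar at the mean of each genotype. For 9 of the 10 genes all mutant points lie below all control points, and for *Elovl5* they lie above.

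Promoter windows were looked up for the 10 genes, since they are often regulated together. RefSeq windows on GRCm38.p6, 250 bases before to 50 after a start of transcription, were found for *Acly*, *Acaca*, *Fasn*, *Elovl1*, *Elovl5*, *Elovl6* and *Fads2*, with 2 windows for *Elovl1* and a window inside the gene for *Acaca*. The windows of *Fasn* (chr11:120824498-120824797, minus strand), *Acly* (chr11:100527951-100528250, minus strand) and *Elovl5* (chr9:77917115-77917414, plus strand) are printed 5′ to 3′ on the strand of the gene, because *Fasn* and *Acly* serve palmitate synthesis and were lower, whereas *Elovl5* is the member that was not lower. Capitals mark the CCAAT box (CCAAT), the GC box (GGGCGG) and the E-box (CACGTG), searched on both strands.
*Fasn*: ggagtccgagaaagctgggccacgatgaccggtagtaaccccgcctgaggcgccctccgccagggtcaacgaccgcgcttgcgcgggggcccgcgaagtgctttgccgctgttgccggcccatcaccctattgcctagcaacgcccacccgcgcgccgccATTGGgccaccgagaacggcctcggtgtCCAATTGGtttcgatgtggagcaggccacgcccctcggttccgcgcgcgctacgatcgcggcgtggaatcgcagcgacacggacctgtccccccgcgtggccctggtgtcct
*Acly*: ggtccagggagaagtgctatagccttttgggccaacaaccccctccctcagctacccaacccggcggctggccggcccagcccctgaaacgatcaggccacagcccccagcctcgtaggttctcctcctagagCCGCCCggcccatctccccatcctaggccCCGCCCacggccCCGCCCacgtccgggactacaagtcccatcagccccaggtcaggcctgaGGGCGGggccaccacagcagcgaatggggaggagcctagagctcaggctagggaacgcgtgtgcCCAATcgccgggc
*Elovl5*: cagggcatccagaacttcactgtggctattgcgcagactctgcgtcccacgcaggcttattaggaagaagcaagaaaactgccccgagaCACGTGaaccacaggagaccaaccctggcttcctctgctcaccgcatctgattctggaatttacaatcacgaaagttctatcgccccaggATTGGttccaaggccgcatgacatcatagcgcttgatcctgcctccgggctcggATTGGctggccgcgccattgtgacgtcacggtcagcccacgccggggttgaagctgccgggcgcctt
The *Fasn* window held 3 CCAAT boxes, of which 2 on opposite strands overlap in a single run of capitals. The *Acly* window held 4 GC boxes and 1 CCAAT box, and the *Elovl5* window held 2 CCAAT boxes and 1 E-box. The CCAAT box was in windows of 4 of the 7 genes and in 37.4% of all 32851 windows. The GC box was in windows of 3 of the 7 genes and in 35.7% of all windows, and the E-box in that of 1 gene and in 7.15% of all windows. A sterol regulatory element searched as TCACNCCAC was in 1.24% of all windows and in none of the 7 genes' windows, which says only that these letters are not in these windows. Letters that match a motif are a description and were not tested as binding sites.

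The 3 enzymes that build palmitate were lower together. *Acly* (GSMG0007393, chr11:100476352-100528000) had values of 22474, 20623 and 23148 in libraries labelled control and of 8126, 6699.9 and 7704 in those labelled mutant. Every mutant value was under every control value, and the mean fell from 22082 ± 1307 to 7509.8 ± 732 (SD, n = 3 each), which is 34% of control and a log2 fold change of -1.56 (SE 0.10, 95% interval -1.79 to -1.33, adjusted p = 1.88e-05). *Acaca* (GSMG0005679, chr11:84129672-84401650), the rate-limiting carboxylase, had values of 17039, 18406 and 20618 in libraries labelled control and of 5593, 4423 and 4433 in those labelled mutant. Mutant 1 was the highest of its genotype and still stood under the lowest control, and the mean of 4816 ± 673 was 25.8% of the control mean of 18687 ± 1806 (log2 fold change -1.96, SE 0.12, adjusted p = 1.61e-05). *Fasn* (GSMG0007757, chr11:120805958-120824547) had values of 10966, 11996 and 13066 in libraries labelled control and of 2866, 2108 and 1903 in those labelled mutant, 19.1% of control by the means of 12009 ± 1050.4 and 2292 ± 507 (log2 fold change -2.41, SE 0.15, 95% interval -2.76 to -2.05, adjusted p = 1.88e-05).

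The balance of synthase to carboxylase also differed. In each library the log2 ratio of *Fasn* to *Acaca* was taken, in which gene length and library scaling cancel between genotypes. It was -0.64 ± 0.02 in libraries labelled control and -1.08 ± 0.13 in those labelled mutant, a difference of -0.45, and no mutant ratio overlapped a control ratio. The exact two-sided permutation test of 3 against 3 libraries cannot go below p = 0.1, which is the value it gave here and for each of the 6 pairs of members compared (adjusted over the pairs, also 0.1). The span and strand of *Acaca* are shared by 4 other genes of the table, the highest with a value of 48.9 in any library.

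The elongases split. *Elovl6* (GSMG0024916, chr3:129532366-129638495), which lengthens palmitate to stearate, had values of 53010.2, 51424 and 61194 in libraries labelled control and of 4325, 2464 and 2285 in those labelled mutant. Its mutant mean of 3025 ± 1129.7 was 5.48% of the control mean of 55209 ± 5243, an 18.3-fold lower level (log2 fold change -4.25, SE 0.22, 95% interval -4.75 to -3.74, adjusted p = 7.68e-06). This was the largest change of the 10 enzymes and ranked 108 by size among the 2671 genes that were lower past the threshold. *Elovl1* (GSMG0026987, chr4:118428093-118432922), which acts on saturated and monounsaturated very long chains such as those of sphingolipids, had values of 16909.8, 17857 and 18191 in libraries labelled control and of 7094, 3783 and 4860.3 in those labelled mutant. All 3 mutant values were below the controls but differed among themselves by 1.88-fold, and the mean fell from 17652 ± 664 to 5246 ± 1688, 29.7% of control (log2 fold change -1.80, SE 0.20, 95% interval -2.25 to -1.35, adjusted p = 0.000276).

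*Elovl5* (GSMG0039833, chr9:77917363-77984519), which lengthens polyunsaturated chains, did not follow the other elongases. Its values were 1530.2, 1678 and 1449.7 in libraries labelled control and 2013, 1926 and 2385 in those labelled mutant. The mutant mean of 2108 ± 244 was 136% of the control mean of 1553 ± 116, and the log2 fold change was 0.44 (SE 0.12, 95% interval 0.16 to 0.72, unadjusted p = 0.00663, adjusted p = 0.024). It therefore met the p limit and not the 2-fold limit. The upper end of the interval also lies under 2-fold.

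Within a library, the ratios between the 3 elongases lay apart by genotype. The ratio of *Elovl6* to *Elovl5* reads was 35.8 ± 5.88 in libraries labelled control and 1.46 ± 0.616 in those labelled mutant, a difference of -4.68 between the mean log2 ratios. The log2 ratio of *Elovl6* to *Elovl1* was 1.64 ± 0.11 in libraries labelled control and -0.81 ± 0.25 in those labelled mutant, a difference of -2.45. That of *Elovl5* to *Elovl1* was -3.51 ± 0.12 and -1.27 ± 0.47, a difference of 2.24. In all 3 pairs the genotypes did not overlap, with the exact permutation p of 0.1 given above. For the pairs with *Elovl5* this had to be so, since *Elovl5* was higher and its partner lower in every mutant-labelled library. Those ratios restate the values of the single genes. These ratios compare reads and not molecules, since gene length is left in each ratio and cancels only in the difference between genotypes. The 5 other genes of the table on the span and strand of *Elovl6* reached at most 50.7, which is 2.22% of its lowest value. The end of *Elovl1* is overlapped by *Cdc20* on the other strand, but only over its last bases. *Cdc20* begins at 118432901 and *Elovl1* ends at 118432922. *Cdc20* was at 5046, 7320.1 and 7815 in libraries labelled control and at 3724, 5100.2 and 2556 in those labelled mutant (log2 fold change -0.86, SE 0.25, adjusted p = 0.0303). Although the study's methods describe oriented cDNA, whether the counting used strand is not given in the sources used here.

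The 4 desaturases were all lower. *Scd2* (GSMG0019728, chr19:44293673-44306864), a stearoyl-CoA desaturase prominent in neural tissue, had values of 296486, 294425 and 335919.6 in libraries labelled control and of 53068, 41104 and 41822 in those labelled mutant. Its mean fell from 308943 ± 23385 to 45332 ± 6709.8, 14.7% of control (log2 fold change -2.78, SE 0.12, 95% interval -3.06 to -2.49, adjusted p = 3.9e-06). *Scd1* (GSMG0020429, chr19:44394450-44407709), the paralogue that is abundant in liver and fat, had values of 5889.8, 5749.7 and 5644 in libraries labelled control and of 2019, 2159 and 1835 in those labelled mutant, with means of 5761 ± 123 and 2004 ± 163 (34.8% of control, log2 fold change -1.53, SE 0.10, adjusted p = 1.83e-05). Neither had a mutant value near its control values. The log2 ratio of *Scd1* to *Scd2* was -5.74 ± 0.13 in libraries labelled control and -4.49 ± 0.23 in those labelled mutant, a difference of 1.25 without overlap. Reads of these close paralogues could be shared in the counting, which makes the value of *Scd1* beside the far more heavily read *Scd2* uncertain.

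A locus without a symbol on the other strand (GSMG0070305, chr19:44293407-44357667) spans *Scd2*. It had values of 5779, 5754 and 7010.2 in libraries labelled control and of 1056, 810.5 and 892 in those labelled mutant, 14.9% of control (log2 fold change -2.75, SE 0.13, adjusted p = 5.5e-06), which is close to the 14.7% of *Scd2*. The cDNA was oriented, but without knowing whether the counting used strand, reads of the locus and of *Scd2* cannot be told apart.

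*Fads2* (GSMG0020084, chr19:10062778-10101616), the delta-6 desaturase, and *Fads1* (GSMG0019398, chr19:10182888-10196874), the delta-5 desaturase, work in turn on dietary polyunsaturated fatty acids and are neighbours on chromosome 19. *Fads2* had values of 11333, 11930.3 and 13759 in libraries labelled control and of 4999, 4909 and 3563 in those labelled mutant, with means of 12341 ± 1264 and 4490.4 ± 805 (36.4% of control, log2 fold change -1.47, SE 0.15, 95% interval -1.80 to -1.14, adjusted p = 0.000158). *Fads1* had values of 7712, 7898 and 8560.0 in libraries labelled control and of 4097, 3499 and 3156 in those labelled mutant, with means of 8057 ± 446 and 3584 ± 476 (44.5% of control, log2 fold change -1.18, SE 0.11, 95% interval -1.44 to -0.92, adjusted p = 0.000139). *Fads1* was the least lowered of the 9 enzymes, and the lower limit of the size of its change lies under 2-fold. The log2 ratio of *Fads1* to *Fads2* was -0.61 ± 0.07 in libraries labelled control and -0.32 ± 0.16 in those labelled mutant, a difference of 0.29 without overlap and the smallest difference of the 6 pairs.

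**Figure D2:**
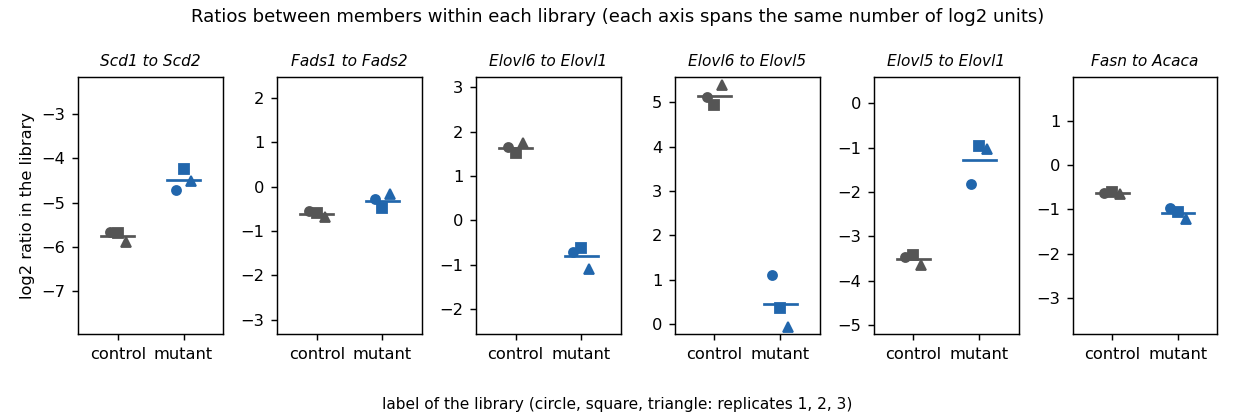
Log2 ratios of 6 pairs of enzymes within each library, with 1 point per library (circle, square and triangle for replicates 1, 2 and 3) and a bar at the mean of each genotype. The genotypes do not overlap in any pair, and the difference is widest for *Elovl6* to *Elovl5* (-4.68) and narrowest for *Fads1* to *Fads2* (0.29). How often the ratios of other pairs of genes separate was not computed.

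The mutant-labelled libraries differed among themselves by more than the control-labelled ones for each of the 10 genes. The highest control value of a member was 1.04 to 1.21 times the lowest, whereas the highest mutant value was 1.89 times the lowest for *Elovl6*, 1.88 for *Elovl1*, 1.51 for *Fasn* and 1.40 for *Fads2*, and 1.18 to 1.30 for the other 6. Mutant 1 had the highest mutant value for 8 of the 10 genes, and the exceptions were *Scd1*, highest in mutant 2, and *Elovl5*, highest in mutant 3. The same library had the highest summed value of the Schwann cell markers in its genotype. *S100b*, a calcium-binding protein of Schwann cells, was at 8163, 8042 and 8379 in libraries labelled control and at 1535, 686 and 887 in those labelled mutant. *Sox10*, a transcription factor of the whole Schwann cell lineage, was at 12618, 11719 and 10919.5 in libraries labelled control and at 9171, 5838 and 6828 in those labelled mutant (log2 fold change -0.71, SE 0.16, adjusted p = 0.00874), which is lower in every mutant-labelled library and not past 2-fold.

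Relative to *Sox10* in the same library, the ratios of the 9 enzymes were lower without overlap between genotypes. The share of all tested genes whose ratio to *Sox10* separates in this way was not computed, so the count cannot be called unusual. The log2 ratio to *Sox10* differed between mutant-labelled and control-labelled libraries by -3.53 for *Elovl6*, -2.06 for *Scd2*, -1.69 for *Fasn*, -1.25 for *Acaca*, -1.08 for *Elovl1*, -0.84 for *Acly*, -0.81 for *Scd1*, -0.76 for *Fads2* and -0.46 for *Fads1*, and by 1.15 for *Elovl5*. These differences are a description with no test, and their sign depends on the marker taken as reference. The log2 fold changes of *S100b* (-3.07) and *Gfra3* (-3.64) were larger in size than those of every enzyme but *Elovl6*, and that of *Erbb3* (-1.55) was larger than those of *Scd1*, *Fads2* and *Fads1* and level with that of *Acly*.

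**Figure D3:**
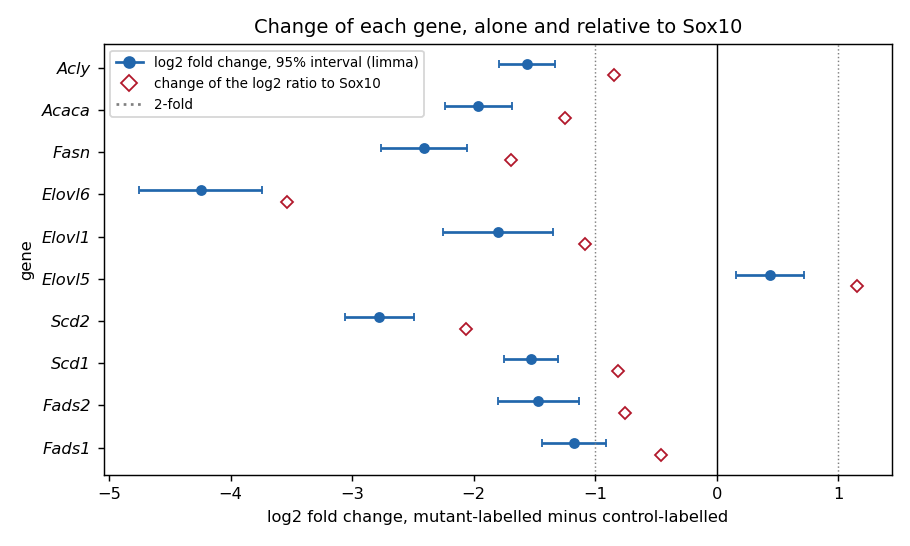
Log2 fold changes (mutant-labelled minus control-labelled) of the 10 enzymes as filled points with 95% intervals from limma, and the difference of the log2 ratio to *Sox10* as open diamonds, with dotted lines at 2-fold. The filled points run from -4.25 for *Elovl6* to -1.18 for *Fads1*, with *Elovl5* on the positive side at 0.44, and every diamond lies to the right of its point.

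Adipocytes make fatty acids with the same enzymes, and fat can adhere to a dissected nerve. None of 9 adipocyte markers passed the threshold, and their summed value was 2818 to 6549 in libraries labelled control and 3093 to 17680 in those labelled mutant. *Adipoq*, the adipokine adiponectin, was at 1134, 7.56 and 362 in libraries labelled control and at 16.7, 4955 and 13.8 in those labelled mutant. It was highest in control 1 and mutant 2 and also raised in control 3. *Plin1* was at 132 in control 3, and *Plin1* and *Cidec* were at 0 in control 2 and mutant 3. Without the library with the highest value in each genotype (control 1 and mutant 2), a choice made after seeing the data, 9 enzymes were again lower past the threshold. *Fasn* was then at a log2 fold change of -2.42, *Scd1* at -1.56 and *Elovl5* at 0.49. That fit keeps control 3, with *Adipoq* at 362, beside mutants 1 and 3, at 16.7 and 13.8. It therefore does not even out the adipocyte signal, and the part of fat in these values was not tested.

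Genes of acetyl-CoA, malonyl-CoA and NADPH supply and its control gave no common direction. Of 11 tested, 3 enzymes or carriers were lower, and 3 genes, of which *Me1* alone is a supplying enzyme, were higher past the threshold, and the list median was a log2 fold change of 0.13. *Acss2*, which makes acetyl-CoA from acetate, was at 3190.3, 2729 and 3614 in libraries labelled control and at 281, 235 and 279 in those labelled mutant, 8.34% of control (log2 fold change -3.57, SE 0.15, adjusted p = 3.05e-06). *Slc25a1*, the carrier that exports citrate from mitochondria to ACLY, was at 5099.9 ± 790.0 and 1342 ± 239 (log2 fold change -1.93, SE 0.16, adjusted p = 7.16e-05), and *Idh1*, a cytosolic source of NADPH, at 7949.9 ± 154 and 2987 ± 403 (-1.42, SE 0.11). Thus the carrier before ACLY and the enzyme beside it were lower as ACLY was. On the other side, the malic enzyme *Me1*, also a source of NADPH, was at 1022, 1350.3 and 1581 in libraries labelled control and at 4876, 3368 and 2712 in those labelled mutant (log2 fold change 1.45, SE 0.23, adjusted p = 0.00181). *Prkaa1*, a catalytic subunit of AMP-activated kinase, which inhibits acetyl-CoA carboxylase, was higher as well (811, 675 and 663 in control-labelled libraries, 1819, 1773 and 1673 in mutant-labelled libraries, log2 fold change 1.30, SE 0.13, adjusted p = 0.000143). *Thrsp* passed the unadjusted threshold only (log2 fold change 2.14, SE 0.73, adjusted p = 0.0504), and its genotypes overlapped. *Acacb*, the carboxylase at the mitochondrial surface, did not pass (log2 fold change 0.49, SE 0.26, adjusted p = 0.178).

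Of 10 other elongases and enzymes of the elongation cycle, 3 were lower and 1 higher, with a median of -0.61. *Elovl7*, which lengthens long saturated chains, was at 1600.1, 1585 and 1952 in libraries labelled control and at 245, 60.8 and 70.2 in those labelled mutant (7.32% of control, log2 fold change -4.05, SE 0.47, adjusted p = 0.000339), with mutant 1 again the highest mutant. *Tecr*, the reductase that closes each round of elongation, fell to 37.4% of control (17106 ± 1508 and 6399.9 ± 739, log2 fold change -1.42, SE 0.11, adjusted p = 4.83e-05), and the dehydratase *Hacd3* to 46.8% (log2 fold change -1.09, SE 0.15, adjusted p = 0.000715). The ketoacyl-CoA reductase *Hsd17b12* was below 2-fold (log2 fold change -0.78, SE 0.13, adjusted p = 0.00196). *Elovl3* had no read in libraries labelled control and was at 45.1, 32.8 and 63.3 in those labelled mutant, at least 14.2-fold higher against a floor of 3 reads per library, which covers counting error only. *Elovl2*, *Elovl4*, *Hacd1*, *Hacd2* and *Hacd4* did not pass.

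Of 7 other desaturases and electron donors, 4 were lower and none higher, with a median of -1.18. The donor *Cyb5a*, a cytochrome b5 that passes electrons to the desaturases, was at 7105 ± 255 in libraries labelled control and 3143 ± 161 in those labelled mutant (44.2% of control, log2 fold change -1.18, SE 0.09, adjusted p = 3.94e-05). *Scd3* (406 ± 82.0 and 84.6 ± 15.3, log2 fold change -2.25, SE 0.25) and *Scd4* (105 ± 24.7 and 44.5 ± 14.9, log2 fold change -1.25, SE 0.40, adjusted p = 0.04) were lower like *Scd1* and *Scd2*, whose reads they could share as paralogues. *Scd4* also lies within the span of the locus without a symbol described for *Scd2* (GSMG0070305), which is on the other strand and had values far above its own, and the same doubt about strand applies. *Fads6* was at 182, 135 and 146 in libraries labelled control and at 24.0, 5.79 and 6.92 in those labelled mutant (log2 fold change -3.80, SE 0.57, adjusted p = 0.00136). *Fads3*, a paralogue of *Fads1* and *Fads2* in the FADS family, had overlapping genotypes at 7452 ± 622 and 7851 ± 599.6 (log2 fold change 0.08, SE 0.10, 95% interval -0.15 to 0.31), an interval that does not reach 2-fold. *Cyb5r3* was at a log2 fold change of -0.00 and *Cyb5b* at -0.60, neither past the threshold.

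Genes that use the finished chains were described in 5 lists. Of 8 acyl-CoA synthetases tested, which activate fatty acids, 4 were lower and 3 higher. *Acsbg1* (log2 fold change -3.08, SE 0.34, adjusted p = 0.000264), *Slc27a1* (-1.82, SE 0.14) and *Acsl1* (-1.26, SE 0.25) were lower the most, whereas *Acsl4*, which prefers arachidonate (1.35, SE 0.13, adjusted p = 0.000152), *Acsl6* (1.28, SE 0.37) and *Acsl5* (1.22, SE 0.09) were higher. Of 12 genes of glycerolipid and phospholipid assembly 1 was lower, *Pcyt2*, the rate-limiting enzyme of phosphatidylethanolamine synthesis, at 12052, 12887 and 13769.5 in libraries labelled control and at 1857, 1356 and 1396 in those labelled mutant (log2 fold change -3.08, SE 0.13, adjusted p = 3.54e-06). Of 13 genes of mitochondrial fatty acid oxidation 1 was lower, *Hadh* (log2 fold change -1.17, SE 0.12, adjusted p = 0.000172), with a list median of -0.18. Of 9 genes of peroxisomal oxidation 3 were lower, *Hsd17b4* (-1.30, SE 0.09), *Abcd3* (-1.09, SE 0.11) and *Ehhadh* (-1.04, SE 0.19), with a list median of -0.57. Without control 1 and mutant 2, or with all libraries rescaled to the same total, 1 peroxisomal gene passed. Of 7 genes of fatty acid binding and uptake, *Fabp7* (-1.57, SE 0.59, adjusted p = 0.0709) was lower and *Fabp3* (1.93, SE 0.66, adjusted p = 0.0503) higher by the unadjusted rule, and neither with an adjusted p at or under 0.05. *Fabp3*, the binding protein of heart and skeletal muscle, was at 447, 309 and 1572 in mutant-labelled libraries and highest in mutant 3, the library with the highest sum of muscle markers. The count of 2 for this list became 0 without control 2 and 1 without control 1 or without any 1 of the mutant-labelled libraries.

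**Figure D4:**
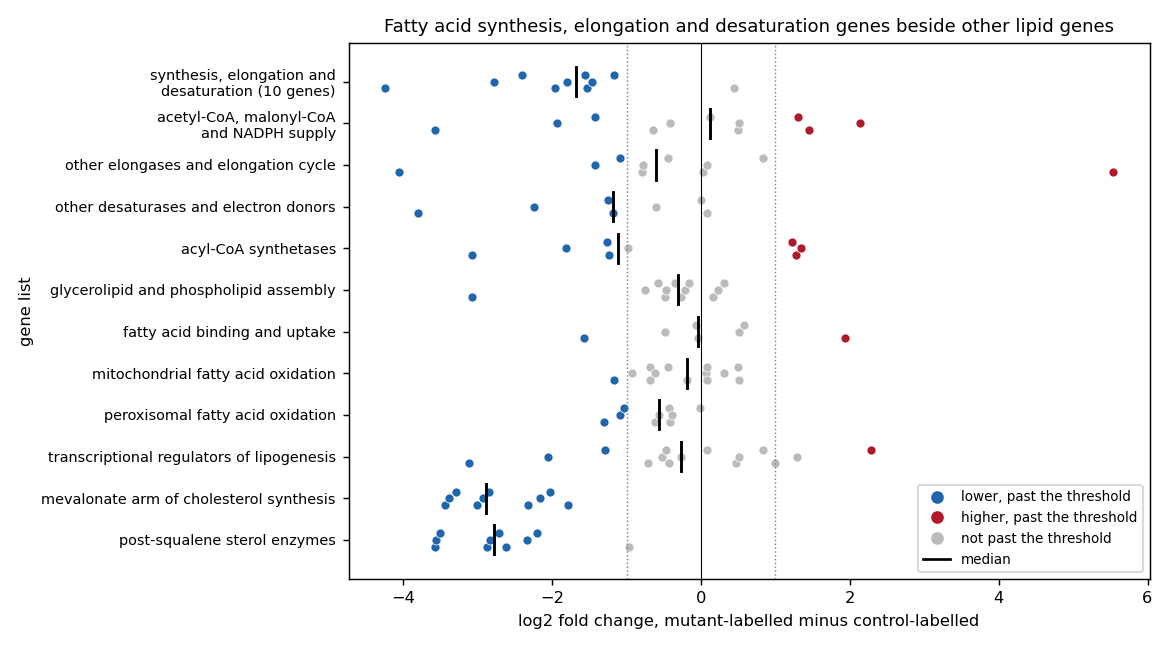
Log2 fold changes (mutant-labelled minus control-labelled) of every tested gene of the 10 enzymes and of each companion list, with 1 point per gene, blue or red where it was lower or higher past the threshold and grey where it did not pass, and a bar at the list median. The point at the far right is *Elovl3*, whose position depends on the pseudocount since it had no read in libraries labelled control. The enzymes sit around -1.68, both sterol lists lie further down (-2.89 and -2.78), and the lists of supply, binding and mitochondrial oxidation lie around 0.

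Among 15 regulators of lipogenic transcription, 3 were lower and 1 higher past the threshold, with a median of -0.27. *Srebf1*, the gene of SREBP1, had values of 4643, 5237 and 4875 in libraries labelled control and of 6269, 4522 and 5003 in those labelled mutant, which overlap (log2 fold change 0.09, SE 0.13, 95% interval -0.21 to 0.38, adjusted p = 0.64). *Srebf2*, the gene of SREBP2, had values of 4794, 5205 and 5269 in libraries labelled control and of 2415, 1874 and 1994 in those labelled mutant, 41.2% of control (log2 fold change -1.29, SE 0.12, adjusted p = 0.000104). Whether the changes of these genes differ from each other was not tested. *Insig1*, itself a target of SREBP that retains SREBP in the endoplasmic reticulum, was at 22692, 21499 and 24797 in libraries labelled control and at 2692, 2820.3 and 2440.0 in those labelled mutant, 11.5% of control (log2 fold change -3.12, SE 0.10, adjusted p = 1.23e-06). *Ppara*, a nuclear receptor for fatty acids, was lower (524 ± 58.0 and 127 ± 25.4, log2 fold change -2.05, SE 0.22, adjusted p = 0.000268). *Nr1h3*, the gene of the oxysterol receptor LXRα, was higher (125, 130.4 and 112 in control-labelled libraries, 577, 757 and 498 in mutant-labelled libraries, log2 fold change 2.29, SE 0.22, adjusted p = 0.000129). *Mlxipl*, the gene of the carbohydrate-responsive factor ChREBP, did not pass (log2 fold change 1.29, SE 0.79, adjusted p = 0.239).

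Cholesterol synthesis draws on the same acetyl-CoA and was set beside the fatty acid enzymes. All 10 tested genes of its mevalonate arm were lower, with a median log2 fold change of -2.89 and a range from -3.45 to -1.78, and 9 of 10 post-squalene enzymes were lower, with a median of -2.78 and a range from -3.58 to -0.97. *Hmgcs1*, the synthase of that arm, was at 9.39% of control (57159.5 ± 4352 and 5370.1 ± 1533, log2 fold change -3.45, SE 0.18, adjusted p = 7.45e-06). *Elovl6* alone of the 10 fatty acid enzymes had a larger change than every gene of both sterol lists, and the other 8 that were lower lay between -2.78 (*Scd2*) and -1.18 (*Fads1*). No test of the difference between the lists was made.

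Outside all lists, the 5 genes with a symbol whose values over the 6 libraries were most like the mean of the 10 enzymes' standardised profiles were *Fnta* (Pearson r = 0.9998, log2 fold change -2.41), *Gatm* (r = 0.9997, -1.74), *Rogdi* (r = 0.9995, -1.55), *Mcee* (r = 0.9994, -1.32) and *Galc* (r = 0.9993, -2.45). *Galc* encodes the lysosomal galactosylceramidase that breaks down a myelin galactolipid, and *Gatm* the first enzyme of creatine synthesis. The members' own r with this profile was 0.977 to 0.999, apart from *Elovl5* at -0.891. The profile is built from the members themselves, so these values are no separate evidence that they vary together. These correlations are a description over 6 libraries that form 2 genotypes, and they were chosen as the highest among all genes.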

How the data were processed

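Poly-A RNA of whole sciatic nerves was sequenced as paired ends. Per the labels and methods, the authors aligned reads with STAR 2.4.0 to mm10, counted them on the constitutive regions of FAST DB genes and divided the counts by DESeq2 size factors. The deposited values are this normalised signal per gene and library. The value of a single read (0.727 to 1.27 by library) was divided out, which gave whole reads for 100% of values (tolerance 0.01), and these reads were used only for edgeR, which called 5805 genes, and DESeq2, which called 6026, as alternatives to limma's 6251.

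limma (lmFit and a trended eBayes) was fitted to log2(value + 1) for the difference of mutant from control, in genes with a mean of at least 10 in at least 1 genotype. Fold changes on this scale understate the changes of low genes. A gene passed where the unadjusted p was 0.05 or less and the difference 2-fold or larger. The limits of 0.05 and 2-fold are those of the study's methods, which do not say whether p was adjusted. Benjamini-Hochberg adjusted p-values cover all tested genes. The 3 libraries of a genotype come from separate animals. Ratios of members were compared by exact two-sided permutation. Scripts were tested on simulated data.

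The members and lists were chosen with earlier results of these data known. Named were all members, genes of the supply, elongation, desaturation and regulator lists, up to 3 genes each way past the threshold from other lists, marker genes, and the 5 genes most like the members. Some genes are not reported here. Alternatives were other pseudocounts (0.1, 10), filters, scalings, tools, terms for replicate or sex, and leaving out each library. R 4.3.3, limma 3.58.1, edgeR 4.0.16, DESeq2 1.42.0, Python 3.11.15, numpy 2.4.6 and matplotlib 3.10.9 were used.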

Additional observations from a re-analysis of the deposited data

How the results depend on the processing

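The count of 9 enzymes lower and 0 higher held under the 13 other settings, with each of the 6 libraries left out, and without control 1 and mutant 2, the libraries with the most adipocyte marker signal, which was an alternative chosen after seeing the data. Each of the 10 enzymes kept its direction and its side of the threshold in these 20 fits. *Elovl6* ranged from -4.54 to -4.08, *Elovl1* from -2.04 to -1.59, *Fads1* from -1.29 to -1.01 and *Elovl5* from 0.32 to 0.60. Rescaling to the same total moved the median over all genes from 0.03 to 0.20 and rescaling to a shared 75th percentile took it to -0.09. Relative to that median, *Elovl5* stayed between 0.399 and 0.407. This is so by construction, since rescaling a library shifts all genes almost alike, and it says nothing about *Elovl5* itself.

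Counts in the companion lists depended more on the setting, and the cause was not tested. Peroxisomal oxidation had 1 gene past the threshold after rescaling to the same total and 1 without control 1 and mutant 2, against 3. Mitochondrial oxidation had 2 after rescaling to the 75th percentile, against 1, and 1 to 2 with a library left out (2 without mutant 1). Fatty acid binding and uptake had 1 with eBayes without trend, 0 with an adjusted p at or under 0.05 and 1 without control 1 and mutant 2, against 2, and 0 to 2 with a library left out.

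The replicate numbers of the labels name different animals, and libraries of the same number did not deviate together (correlations of -0.06, -0.06 and 0.01). With the replicate number as a block, 9 enzymes were lower and 0 higher, and 6149 genes passed in all, against 6251. With 3 animals a genotype, an exact permutation test of a single value cannot reach 0.05.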
